A study of Homo sapiens with 12 samples.

Results

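The genes described here are 10 members of the BCL2 family, chosen by symbol: BCL2, BCL2L1, MCL1 and BCL2A1, which promote survival, the BH3-only genes BCL2L11, BMF, PMAIP1 and BBC3, and the effectors BAX and BAK1. Each matched 1 of the 23497 genes in the deposited table, and all 10 were among the 17114 genes with enough counts to be tested. They were followed in WM1366, a human melanoma cell line with an activating NRAS mutation, and in 3 daughter lines of it resistant to a BRAF inhibitor (BRAFi) given with a MEK inhibitor (MEKi). The sensitive parent was grown with DMSO, and the daughter lines in their drugs: dabrafenib with trametinib for DT-resistant, vemurafenib with cobimetinib for VC-resistant, and encorafenib with binimetinib for EB-resistant cells. RNA was taken 72 h after seeding, and each of the 4 groups holds 3 polyadenylated RNA libraries (replicates 2, 5 and 6) from separate experiments. With 1 line per drug pair, errors and p-values describe the spread between experiments, and lines derived separately were not compared. Resistance, the drug in the medium and the history of each culture all differ between a resistant line and its parent and cannot be told apart.

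Mitochondrial apoptosis is set by the balance between these proteins. The effectors BAX and BAK permeabilise the outer mitochondrial membrane and release cytochrome c. The prosurvival proteins hold the effectors in check, and the BH3-only proteins bind the prosurvival proteins, or the effectors themselves, to lift that block. In melanoma, BRAFi and MEKi treatment is known for acting on this balance through ERK, which marks the BH3-only protein BIM for degradation and supports MCL1, and BCL2A1 is a known target gene of the melanocyte factor MITF.

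Library totals ran from 40491309 to 54495132 counts, and levels are given as CPM (counts scaled to a library size common to all libraries), as mean ± SD over 3 libraries unless single libraries are named. Of 8 melanocyte lineage genes, 4 have an entry in the table used: MITF stood at a mean of 47.2 to 66.4 CPM in the 4 groups, and PMEL, TYRP1 and DCT had group means below 1 CPM. TYRP1 stood at 0.0284 CPM in sensitive and 0.581 CPM in EB-resistant cells, where it rose (log2FC 4.24, adjusted p = 3.91e-05), and it rose in DT-resistant cells too (2.14, adjusted p = 0.0275). TYR, SOX10, MLANA and S100B were not analysed here. The 9 fibroblast markers summed to 110 to 149 CPM in sensitive, 528 to 591 in EB-resistant, 362 to 468 in DT-resistant and 281 to 314 in VC-resistant libraries. THY1 gave most of that sum, from 127 CPM in sensitive to 409.5 CPM in EB-resistant. All 6 fibroblast markers tested rose in EB-resistant cells, with a median log2FC of 4.95. Of these 6, 4 rose and 1 fell in VC-resistant cells, and 5 rose and 0 fell in DT-resistant cells. PDGFRB went from 0.784 CPM in sensitive to 74.5 CPM and COL1A1 from 0.325 to 17.9 CPM in EB-resistant cells, and LUM from 0.916 to 145 CPM in DT-resistant cells. The other markers COL1A2, DCN and PDGFRA had group means of at most 0.146 CPM, with DCN at 0 in sensitive and COL1A2 at 0 in DT-resistant cells. Summed immune markers reached at most 1.19 CPM, endothelial markers 7.28 CPM and epithelial markers 0.208 CPM. The part of these markers in the results below was not tested. In bulk RNA, fewer cells of a type and less RNA per cell cannot be told apart.

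The prosurvival genes BCL2L1, MCL1 and BCL2A1 fell in every resistant line and BCL2 fell in EB- and DT-resistant cells, while the BH3-only genes and effectors did not move together. Against sensitive, 5 members fell and 1 rose in EB-resistant cells, where 56.1% of all tested genes were called (27.6% lower, 28.5% higher). In VC-resistant cells 6 members fell and 0 rose, with 55% of all genes called (27.4% lower, 27.6% higher). In DT-resistant cells 6 members fell and 2 rose, with 59.1% of all genes called (29.3% lower, 29.8% higher). A gene is called, and said to rise or fall, when its adjusted p is under 0.05 in edgeR's quasi-likelihood F-test with Benjamini-Hochberg adjustment over the 17114 genes. All adjusted p-values below come from that fit, and log2 fold changes (log2FC) carry their standard error. The median log2FC of the 10 members was -0.68, -0.33 and -0.38 in EB-, VC- and DT-resistant cells, and that of all tested genes lay between -0.0054 and 0.00086 over the comparisons made. BCL2L1, MCL1, BCL2A1 and PMAIP1 fell in all 3 resistant lines, as did 12.1% of all tested genes. The comparisons with sensitive share the sensitive libraries.

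**Figure D1:**
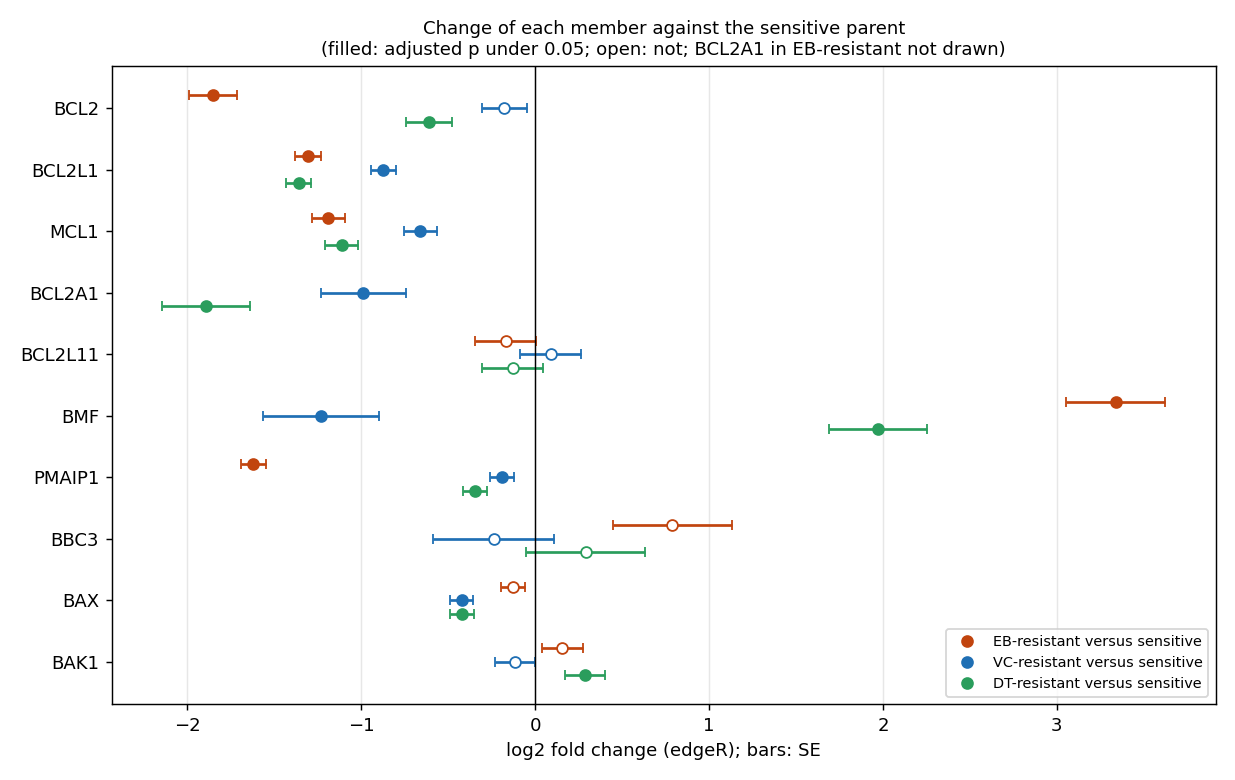
Log2 fold change of each BCL2 family member in the EB-, VC- and DT-resistant lines against the sensitive parent (points, with SE as bars; filled points have an adjusted p under 0.05). BCL2L1 and MCL1 lie left of 0 in all 3 lines, BMF lies right of 0 in EB- and DT-resistant and left of it in VC-resistant cells, and BCL2L11 lies near 0; BCL2A1 in EB-resistant cells rests on 2 counts and is not drawn.

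MCL1 encodes a short-lived prosurvival protein and had the highest level per length of the 10 genes in sensitive cells. It lies at chr1:150560895-150579738 (hg38, minus strand). Its sensitive libraries held 621, 559 and 482 CPM (replicates 2, 5 and 6, as in all triplets below), the EB-resistant ones 260, 240 and 228, the VC-resistant ones 382, 329 and 340, and the DT-resistant ones 256, 276 and 237. All 3 sensitive libraries lay above all 9 resistant ones, and the VC-resistant libraries lay above those of the other resistant lines. MCL1 fell 2.28-fold in EB-resistant (log2FC -1.19 ± 0.095, adjusted p = 6.19e-08), 1.58-fold in VC-resistant (-0.66 ± 0.094, adjusted p = 3.24e-05) and 2.16-fold in DT-resistant cells (-1.11 ± 0.095, adjusted p = 1.57e-07). ADAMTSL4 lies over MCL1's span on the other strand with no exonic base in common, and its count was at most 6.73% of MCL1's.

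BCL2L1 encodes BCL-XL, and its other splice form, the proapoptotic BCL-XS, is counted under the same symbol. It lies at chr20:31664452-31723989 (minus strand). Its level was 321, 338 and 314 CPM in sensitive, 138, 125 and 131 CPM in EB-resistant, 114, 136 and 129 CPM in DT-resistant and 184, 178 and 170 CPM in VC-resistant libraries. As for MCL1, no resistant library reached the sensitive range, and EB- and DT-resistant libraries overlapped each other below the VC-resistant ones. BCL2L1 fell 2.47-fold in EB-resistant (log2FC -1.31 ± 0.074, adjusted p = 1.47e-09), 1.83-fold in VC-resistant (-0.87 ± 0.073, adjusted p = 1.78e-07) and 2.57-fold in DT-resistant cells (-1.36 ± 0.074, adjusted p = 1.55e-09). The antisense gene ABALON shares 1424 exonic bases with BCL2L1 in GENCODE v29, and its count was at most 0.114% of BCL2L1's. As the strand setting of the counting is not given in the sources used here, BCL2L1's count over these bases is uncertain.

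BCL2, the founding prosurvival gene (chr18:63123346-63320128, minus strand), separated the lines more. Sensitive libraries held 19.3, 18.6 and 16.4 CPM, VC-resistant ones 16.8, 15.7 and 15.5, DT-resistant ones 13.4, 12.4 and 9.77, and EB-resistant ones 5.50, 4.21 and 5.29. The sensitive and VC-resistant ranges overlapped, the DT-resistant libraries lay below both, and the EB-resistant libraries were lowest. BCL2 fell 3.62-fold in EB-resistant (log2FC -1.85 ± 0.14, adjusted p = 2.76e-08) and 1.53-fold in DT-resistant cells (-0.61 ± 0.13, adjusted p = 0.000933). In VC-resistant cells it was not called (log2FC -0.18, 95% interval -0.45 to 0.10, adjusted p = 0.262).

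BCL2A1, which encodes the prosurvival protein BFL-1 (chr15:79960892-79971196, minus strand), was close to absent from the EB-resistant libraries. Its raw counts were 1057, 964 and 577 in sensitive, 256, 379 and 664 in VC-resistant, 180, 255 and 229 in DT-resistant, and 1, 1 and 0 in EB-resistant libraries. On the CPM scale the sensitive libraries stood at 23.0, 19.1 and 12.6, the VC-resistant ones at 6.72, 8.34 and 12.4, and the DT-resistant ones at 3.83, 5.62 and 5.27. The 4 groups did not overlap, although the lowest sensitive and the highest VC-resistant library, both replicate 6, were 12.6 and 12.4 CPM. With 2 counts against 2598, the ratio of sensitive to EB-resistant pooled CPM (summed counts over summed scaled library sizes) was 1321. The 95% counting interval of this ratio was 365.3 to 10910 (counting error only). The fall was called (adjusted p = 2.44e-09). BCL2A1 fell 1.99-fold in VC-resistant (log2FC -0.99 ± 0.24, adjusted p = 0.0036) and 3.72-fold in DT-resistant cells (-1.89 ± 0.25, adjusted p = 2.54e-05). The sensitive libraries had an SD of 5.28 CPM around a mean of 18.2 CPM.

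For 9 of the 10 genes RefSeq's promoter table (GRCh38.p14) gives a start, and MCL1 has no entry. The 250 bases before each start (the first listed, where there are 2) were searched on both strands for 9 motifs. Letters were TGANTCA for AP-1, TGTTTAC for FOXO, CCGGAAG for ETS factors, CATGTG for the MITF type of E-box, CACGTG for the MYC type, TGACGTCA for the CRE and TATAAA for the TATA box. The kappaB site and the CArG box were searched by their usual patterns. CACGTG, TGACGTCA and TGANTCA read the same on both strands, so a match on either is the same site. Matches are descriptions of letters in these windows and not evidence of binding. BCL2's window held a CArG box at -56 to -47 (1.16% of all windows), BCL2L1's held TATAAA at -208 to -203 and at -125 to -120, and BBC3's held an AP-1 site at -113 to -107 (6.57% of all windows). All 250 bases of BCL2's window are exonic in GENCODE v29 and lie inside BCL2's deposited span, which ends at 63320128. No member's window held the ETS or CRE letters, found in 8.52% and 1.65% of all windows. The windows of PMAIP1 and BAK1 held none of the 9 motifs, and those of BMF, BCL2L11 and BAX are described with these genes. BCL2A1's window held CATGTG at -25 to -20, which 9.42% of all 35116 promoter windows hold, and TATAAA at -70 to -65, which 10.7% hold. All 250 bases of this window are exonic in GENCODE v29, counting exons of any gene on either strand. The window lies upstream of the deposited span of BCL2A1, which ends at 79971196. Since the whole window is exonic, only 30 bases around each match are shown, with capitals marking the match. They are shown because BCL2A1 had the widest range of levels and MITF is its known activator.
BCL2A1 E-box, chr15:79971204-79971233, minus strand: tccatgtatcatCATGTGtcataactcagt
BCL2A1 TATA box, chr15:79971249-79971278, minus strand: gaggaaggatatTATAAAgtgatgcaaaca
A part of MITF in BCL2A1's levels was not tested. MITF transcript differed from BCL2A1 in the order of the groups. It stood at 47.2 ± 5.75 CPM in sensitive, 53.3 ± 3.03 in EB-resistant, 66.3 ± 3.30 in DT-resistant and 66.4 ± 5.70 in VC-resistant libraries, rising in VC-resistant (log2FC 0.49 ± 0.094, adjusted p = 0.000395) and DT-resistant cells (0.49, adjusted p = 0.000352).

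**Figure D2:**
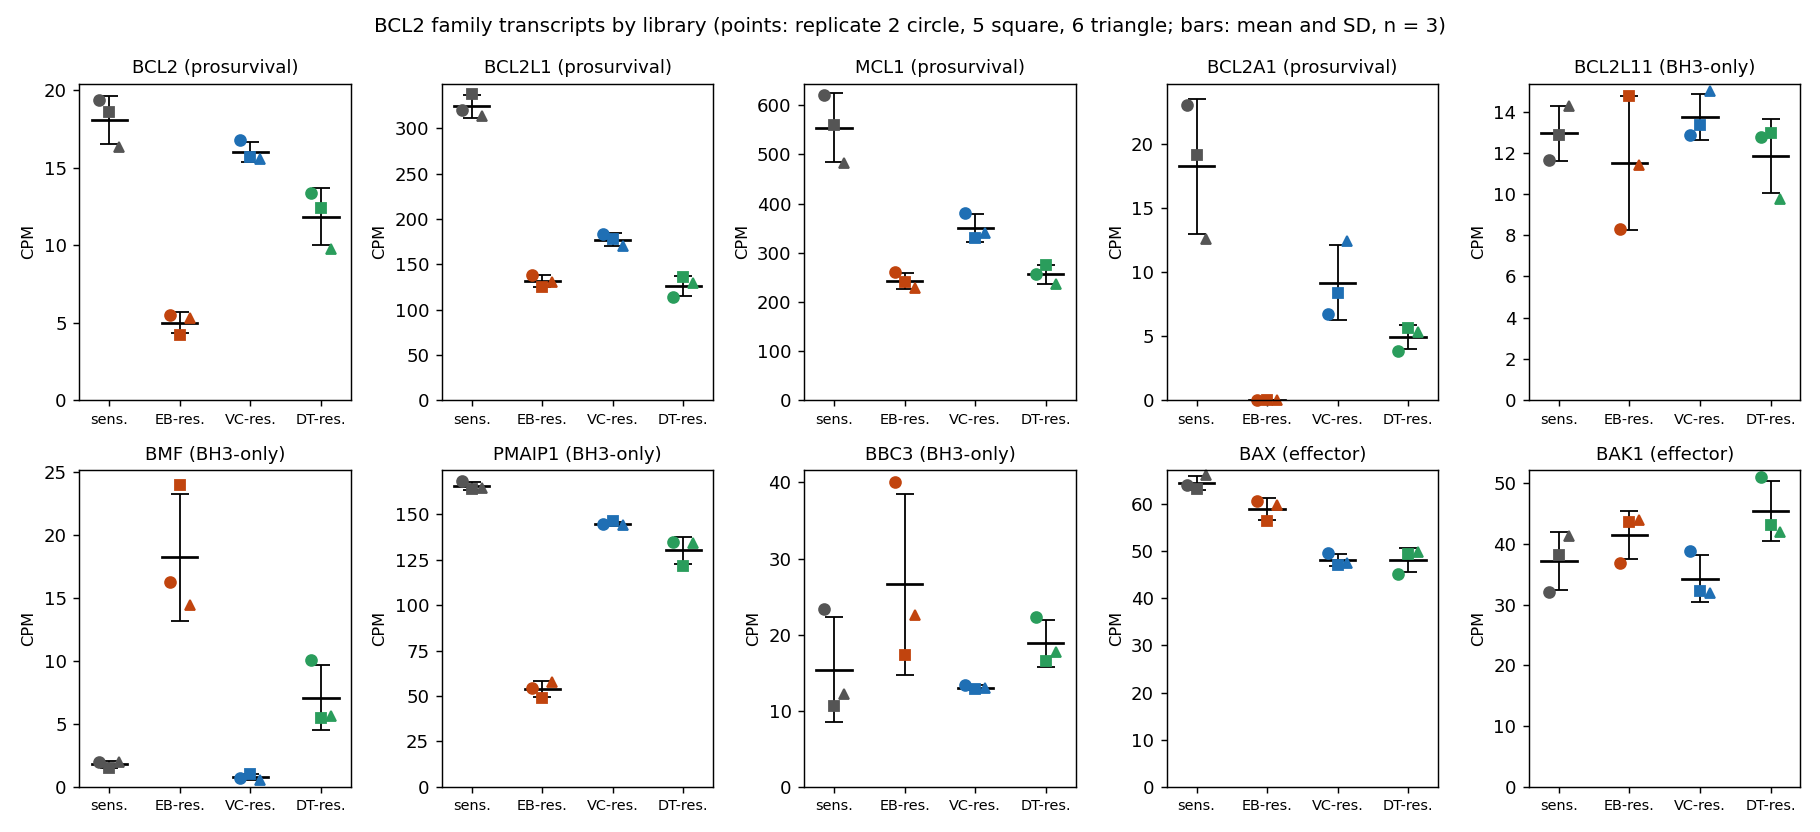
CPM of each of the 10 genes in every library (points; circle, square and triangle are replicates 2, 5 and 6) with group mean and SD (bars, n = 3), in the sensitive parent and the EB-, VC- and DT-resistant lines; each panel has its own axis from 0. MCL1 and BCL2L1 are highest in the sensitive libraries, BCL2A1 is at 0 to 0.0208 CPM in EB-resistant libraries, and BMF is at 14.4 to 24.0 CPM there.

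To compare genes with each other, CPM were divided by the deposited gene length in kb. MCL1 and BCL2L1 made up most of the prosurvival transcripts in every group. In sensitive cells MCL1 stood at 89.0 ± 11.3 CPM per kb, BCL2L1 at 77.3 ± 2.97, BCL2A1 at 18.3 ± 5.31 and BCL2 at 1.43 ± 0.123. The sum of the 4 genes was 186 ± 17.96 CPM per kb in sensitive, 70.7 ± 3.86 in EB-resistant, 77.1 ± 5.38 in DT-resistant and 109 ± 4.16 in VC-resistant libraries. Sensitive libraries ranged from 166 to 201 CPM per kb and VC-resistant ones from 105 to 113, with no overlap, and EB-resistant (68.3 to 75.1) and DT-resistant libraries (73.2 to 83.3) overlapped. BCL2A1's share of the sum was 9.72% in sensitive, 8.47% in VC-resistant, 6.37% in DT-resistant and 0.0192% in EB-resistant cells, and MCL1's share ran from 47.8% in sensitive to 55.2% in EB-resistant cells. The deposited length of MCL1 is 6222 bases, while its exons cover 4371 bases in GENCODE v29, so its level per length depends on the gene model.

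**Figure D3:**
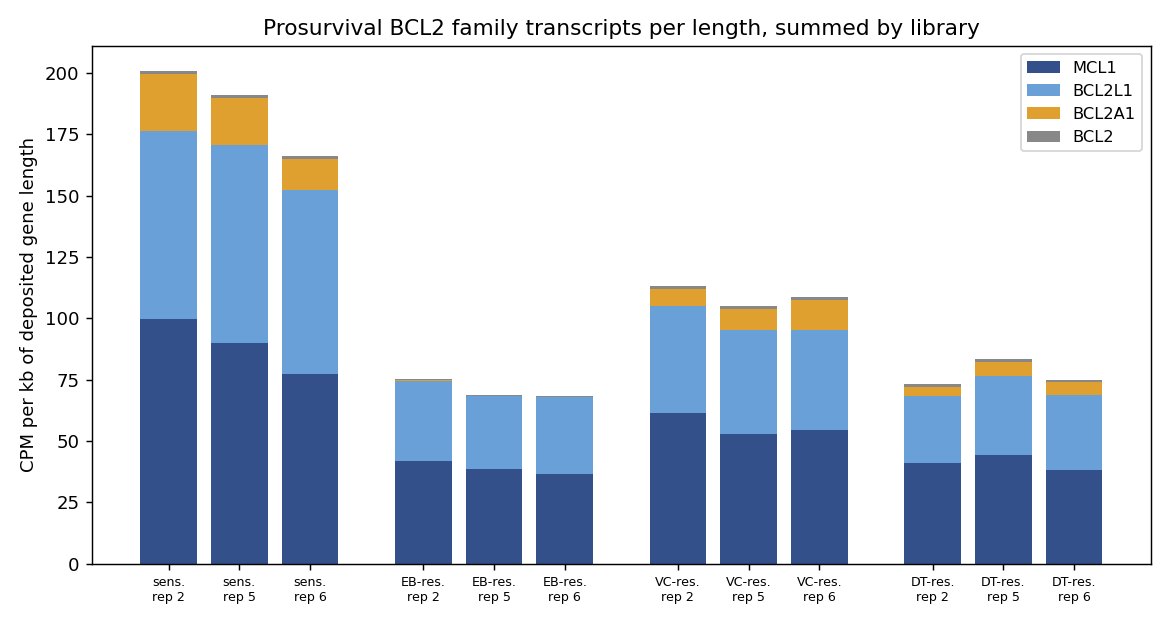
CPM per kb of deposited gene length for MCL1, BCL2L1, BCL2A1 and BCL2, stacked, in each of the 12 libraries (1 bar each; sens., sensitive). The 3 sensitive bars reach 166 to 201 CPM per kb, the VC-resistant bars 105 to 113, and the EB- and DT-resistant bars 68.3 to 83.3.

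Among the BH3-only genes, BMF and PMAIP1 moved in opposite directions in EB-resistant and DT-resistant cells. BMF encodes a BH3-only protein that a dynein light chain holds at the actin cytoskeleton in healthy cells (chr15:40087890-40108892, minus strand). Its raw counts were 90, 74 and 91 in sensitive, 780, 1177 and 687 in EB-resistant, 472, 249 and 246 in DT-resistant, and 28, 47 and 29 in VC-resistant libraries. In CPM these were 1.96, 1.47 and 1.98 in sensitive, 16.3, 24.0 and 14.4 in EB-resistant, 10.04, 5.49 and 5.67 in DT-resistant, and 0.735, 1.03 and 0.541 in VC-resistant libraries. No 2 groups overlapped. BMF rose 10.1-fold in EB-resistant (log2FC 3.34 ± 0.29, adjusted p = 3.35e-07) and 3.93-fold in DT-resistant cells (1.97 ± 0.28, adjusted p = 4.51e-05), and fell 2.35-fold in VC-resistant cells (-1.23 ± 0.34, adjusted p = 0.00672). Of all tested genes, 4.37% had a larger absolute log2FC than BMF in EB-resistant cells. The summed fibroblast markers were likewise highest in EB-resistant and next in DT-resistant libraries, but were higher in VC-resistant (281 to 314 CPM) than in sensitive libraries (110 to 149 CPM), where BMF was lower.

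BMF's promoter window is shown because BMF was the member that rose in some lines and fell in another. Its only match was a kappaB site on the opposite strand, at -20 to -11 (capitals), and 5.21% of all windows held such a match. The last 13 bases of the window are exonic in GENCODE v29.
BMF, chr15:40108880-40109129, minus strand: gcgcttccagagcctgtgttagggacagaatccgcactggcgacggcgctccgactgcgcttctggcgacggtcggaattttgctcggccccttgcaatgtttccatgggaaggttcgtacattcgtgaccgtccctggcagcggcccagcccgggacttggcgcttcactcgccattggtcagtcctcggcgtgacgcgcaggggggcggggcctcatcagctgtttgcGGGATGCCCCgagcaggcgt
The genes for the kappaB-binding factors RELA and REL rose in DT-resistant cells (log2FC 0.27, adjusted p = 0.0034, and 1.42 ± 0.17, adjusted p = 5.98e-06). In EB-resistant cells RELA rose (log2FC 0.19, adjusted p = 0.0326) and REL was not called (0.16, adjusted p = 0.462). In VC-resistant cells, where BMF fell, neither was called (log2FC -0.0072 for RELA and 0.34 for REL, adjusted p = 0.94 and 0.117). NFKB1, which encodes another subunit of this factor family, fell in EB-resistant (-0.26, adjusted p = 0.0159) and VC-resistant cells (-0.51, adjusted p = 0.000125) and was not called in DT-resistant cells (0.09, adjusted p = 0.373). A part of these factors in BMF's levels was not tested.

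PMAIP1 encodes NOXA, which binds MCL1 and BFL-1 (chr18:59899996-59904305, plus strand). Its libraries held 168, 164 and 165 CPM in sensitive, 54.6, 49.1 and 57.8 in EB-resistant, 135, 122 and 134 in DT-resistant and 144, 146 and 144 in VC-resistant cells. The 4 groups did not overlap, and the EB-resistant libraries stood far below the rest. PMAIP1 fell 3.08-fold in EB-resistant (log2FC -1.62 ± 0.071, adjusted p = 1.04e-10) and 1.27-fold in DT-resistant cells (-0.35 ± 0.069, adjusted p = 0.000537). The 1.14-fold fall in VC-resistant cells (-0.19 ± 0.069, adjusted p = 0.0274) passed the threshold by little. Without any 1 of the 6 sensitive and VC-resistant libraries its adjusted p was 0.0608 to 0.087, with a log2FC of -0.19 to -0.18, and 3 members instead of 4 then fell in all 3 lines.

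BBC3 encodes PUMA, which binds every prosurvival protein (chr19:47220822-47232766, minus strand). Its libraries held 23.4, 10.7 and 12.2 CPM in sensitive, 40.0, 17.3 and 22.6 in EB-resistant, 22.3, 16.5 and 17.7 in DT-resistant and 13.4, 12.8 and 12.97 in VC-resistant cells. In each group the highest library was replicate 2, by a small margin in VC-resistant cells, and the sensitive range overlapped those of all resistant lines. BBC3 was not called in EB-resistant (log2FC 0.79, 95% interval 0.02 to 1.55, adjusted p = 0.0745), VC-resistant (-0.24, -1.01 to 0.53, adjusted p = 0.585) or DT-resistant cells (0.29, -0.48 to 1.06, adjusted p = 0.494). Sensitive replicate 2 decided part of this: without it the log2FC in EB-resistant cells was 1.21 (adjusted p = 0.00637) and that in VC-resistant cells 0.19 (adjusted p = 0.624). Without EB-resistant replicate 5 the EB-resistant change was 1.02 (adjusted p = 0.0247).

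**Figure D4:**
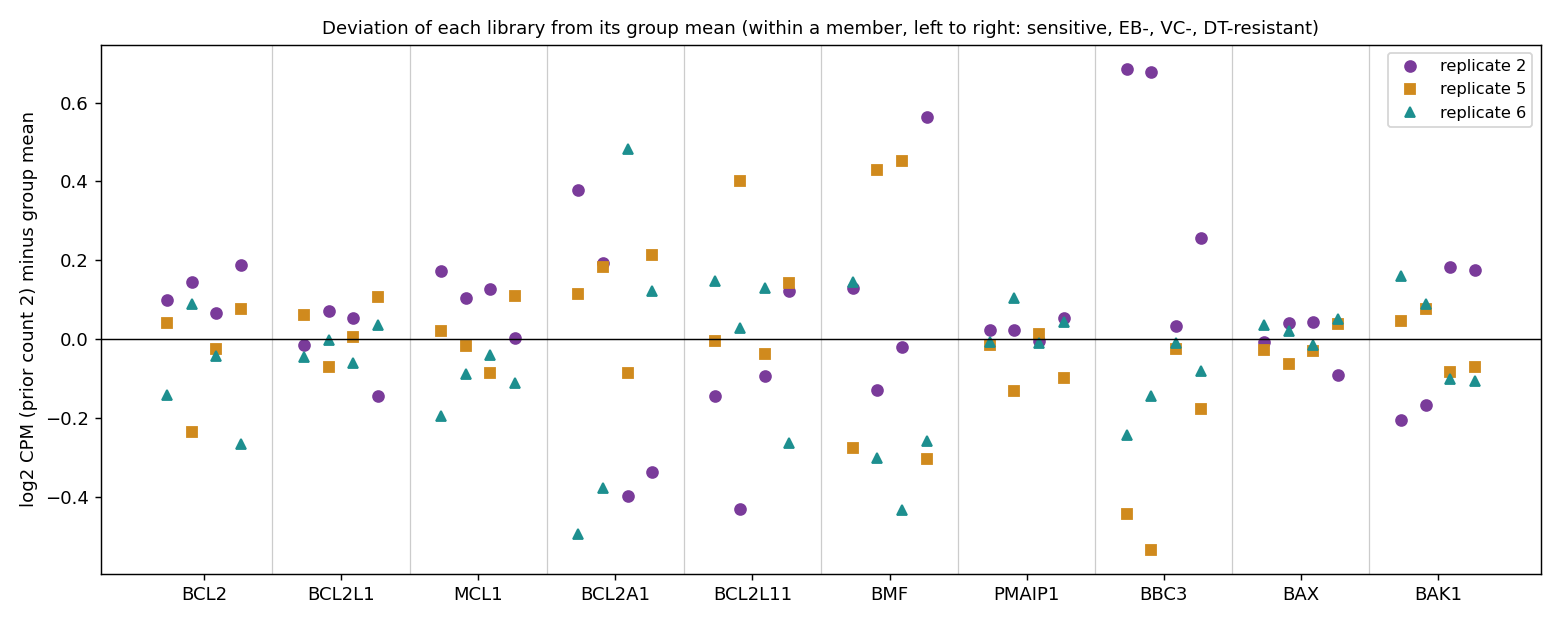
Deviation of each library's log2 CPM (prior count 2) from its group mean, for the 10 genes; within a gene the groups run sensitive, EB-, VC- and DT-resistant from left to right, and colour and shape give the replicate. BBC3 replicate 2 lies 0.69 above the mean in sensitive and 0.68 above it in EB-resistant cells, BCL2A1 and BMF spread in several groups, and PMAIP1 and BAX stay close to 0.

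BCL2L11 encodes BIM, the BH3-only protein that ERK marks for degradation (chr2:111119378-111168445, plus strand). Its libraries held 11.7, 12.9 and 14.3 CPM in sensitive, 8.30, 14.8 and 11.4 in EB-resistant, 12.8, 12.96 and 9.77 in DT-resistant and 12.9, 13.4 and 15.0 in VC-resistant cells. All 4 groups overlapped. It was not called in EB-resistant (log2FC -0.17, 95% interval -0.54 to 0.20, adjusted p = 0.429), VC-resistant (0.09, -0.28 to 0.46, adjusted p = 0.689) or DT-resistant cells (-0.13, -0.50 to 0.24, adjusted p = 0.547). These are transcript levels, and protein was not measured. The antisense gene MIR4435-2HG shares 727 exonic bases with BCL2L11 in GENCODE v29 and reached 4045 counts, at most 1020% of BCL2L11's count in the same library. The strand setting of the counting is not given in the sources used here, so reads of the shared stretch may be split uncertainly.

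BCL2L11's promoter window is shown because BIM is a known FOXO3 target, and FOXO3 rose in all 3 resistant lines. BCL2L11 itself was called in none of them, and a part of FOXO3 in its levels was not tested. FOXO3 stood at 59.5 ± 1.42 CPM in sensitive, 101 ± 4.74 in EB-resistant, 145 ± 23.3 in DT-resistant and 129 ± 29.8 in VC-resistant cells (log2FC 0.77, 1.28 and 1.11 in that order, adjusted p = 0.000371, 4.95e-06 and 2.15e-05). The window's only match was a FOXO site on the opposite strand, at -223 to -217 (capitals), and 2.98% of all windows held such a match. No base of the window is exonic in GENCODE v29, but the window lies inside the deposited span of BCL2L11, which starts at 111119378.
BCL2L11, chr2:111120664-111120913, plus strand: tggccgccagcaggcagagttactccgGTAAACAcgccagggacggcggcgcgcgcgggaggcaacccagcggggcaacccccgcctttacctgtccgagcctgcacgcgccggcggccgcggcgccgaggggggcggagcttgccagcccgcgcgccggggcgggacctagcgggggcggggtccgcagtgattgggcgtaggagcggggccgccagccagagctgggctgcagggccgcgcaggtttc

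BAX and BAK1, the effectors, changed by at most 1.34-fold against sensitive. BAX (chr19:48954815-48961798, plus strand) stood at 64.1, 63.2 and 66.1 CPM in sensitive, 60.7, 56.4 and 59.8 in EB-resistant, 45.1, 49.4 and 49.8 in DT-resistant and 49.5, 47.1 and 47.6 in VC-resistant libraries. Sensitive libraries lay above all others, and the VC- and DT-resistant libraries overlapped below the EB-resistant ones. BAX fell 1.34-fold in VC-resistant (log2FC -0.42 ± 0.068, adjusted p = 9.55e-05) and in DT-resistant cells (-0.42 ± 0.068, adjusted p = 8.10e-05), and was not called in EB-resistant cells (-0.13, 95% interval -0.27 to 0.02, adjusted p = 0.119). BAX's promoter window held CACGTG, the MYC type of E-box, at 4 positions and BBC3's held it at -232 to -227, and 6.34% of all windows held at least 1. The BAX matches at -45 to -40 and -14 to -9 lie inside BAX's deposited span, which starts at 48954815. In all, 60 bases of BAX's window are exonic in GENCODE v29.

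BAK1 (chr6:33572547-33580293, minus strand) stood at 32.1, 38.1 and 41.3 CPM in sensitive, 36.8, 43.6 and 44.0 in EB-resistant, 51.0, 43.0 and 42.0 in DT-resistant and 38.7, 32.2 and 31.8 in VC-resistant libraries. The DT-resistant libraries lay above the sensitive ones, with 42.0 and 41.3 CPM in the nearest pair, and the other resistant lines overlapped with sensitive. BAK1 rose 1.22-fold in DT-resistant cells (log2FC 0.29 ± 0.12, adjusted p = 0.0433) and was not called in EB-resistant (0.16, 95% interval -0.09 to 0.40, adjusted p = 0.264) or VC-resistant cells (-0.12, -0.36 to 0.13, adjusted p = 0.404). The call in DT-resistant cells was lost without sensitive replicate 2 (adjusted p = 0.184) or 5 (0.0707), EB-resistant replicate 5 (0.0513), or DT-resistant replicate 2 (0.172) or 5 (0.0503), leaving 1 member that rose. It was lost as well in DESeq2's Wald test (adjusted p = 0.0532) and in a fit to the 6 libraries compared (adjusted p = 0.0562).

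Differences between the resistant lines were tested directly. EB-resistant against VC-resistant cells gave 3 members higher and 5 lower, with 58.4% of all genes called (29.6% higher, 28.8% lower). EB-resistant against DT-resistant cells gave 2 higher and 3 lower, with 57.2% called (28.4% higher, 28.8% lower). VC-resistant against DT-resistant cells gave 4 higher and 2 lower, with 15.8% called (7.08% higher, 8.71% lower). All 4 prosurvival genes were higher in VC-resistant than in DT-resistant cells: BCL2L1 by 1.40-fold (log2FC 0.49 ± 0.073, adjusted p = 0.000292), MCL1 by 1.37-fold (0.45 ± 0.094, adjusted p = 0.00395), BCL2 by 1.35-fold (0.43 ± 0.13, adjusted p = 0.035) and BCL2A1 by 1.87-fold (0.90 ± 0.25, adjusted p = 0.0259).

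The calls of BCL2 and BCL2A1 between VC- and DT-resistant cells were near the threshold and were lost when some single libraries were left out. With a library left out, BCL2's log2FC ran from 0.3121 to 0.5321 and BCL2A1's from 0.6217 to 1.082. BCL2's was lost without sensitive replicate 5 (adjusted p = 0.0504), VC-resistant replicate 2 (0.0773), 5 (0.0733) or 6 (0.0735), or DT-resistant replicate 5 (0.0656) or 6 (0.135), and in a fit to the 6 libraries compared (0.0605). BCL2A1's was lost without VC-resistant replicate 6 (adjusted p = 0.124) or DT-resistant replicate 2 (0.0973) or 6 (0.0547), and in limma on the deposited normalised counts (0.0729). Without VC-resistant replicate 6, or without DT-resistant replicate 6, 2 members instead of 4 were higher in VC-resistant cells. Without VC-resistant replicate 6 the genes called over the whole table were 756 higher and 966 lower, instead of 1211 and 1491.

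Leaving BCL2A1 aside, BMF showed the widest differences between the lines. It was 23.8-fold higher in EB-resistant than in VC-resistant cells (log2FC 4.57 ± 0.32, adjusted p = 6.17e-08), 2.58-fold higher in EB-resistant than in DT-resistant cells (1.36 ± 0.26, adjusted p = 0.000443) and 9.23-fold lower in VC-resistant than in DT-resistant cells (-3.21 ± 0.31, adjusted p = 1.40e-05). Of all tested genes, 0.783% had a larger absolute log2FC than BMF between VC- and DT-resistant cells. BCL2 and PMAIP1 were lower in EB-resistant cells than in either of the others, by log2FC -1.68 ± 0.14 and -1.43 ± 0.071 against VC-resistant (adjusted p = 1.06e-07 and 7.93e-10) and by -1.24 ± 0.14 and -1.28 ± 0.071 against DT-resistant cells (adjusted p = 2.21e-06 and 2.25e-09). BCL2A1 was lower in EB-resistant cells too, with ratios of pooled CPM of 685.2 for VC-resistant (95% counting interval 189.3 to 5664) and 353.7 for DT-resistant cells (97.54 to 2927). BCL2L1 and MCL1 were lower in EB-resistant than in VC-resistant cells (log2FC -0.43 ± 0.073 and -0.53 ± 0.094, adjusted p = 0.000117 and 0.000193). Against DT-resistant cells they were not called (0.06, 95% interval -0.10 to 0.21, adjusted p = 0.541, and -0.08, -0.28 to 0.12, adjusted p = 0.505).

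Among the remaining BH3-only genes and effectors, BAX was 1.23-fold higher in EB-resistant than in VC-resistant (log2FC 0.29 ± 0.068, adjusted p = 0.00166) and DT-resistant cells (0.29 ± 0.068, adjusted p = 0.00179). BAK1 was 1.32-fold lower in VC-resistant than in DT-resistant cells (log2FC -0.40 ± 0.12, adjusted p = 0.0259). That call was lost without VC-resistant replicate 5 (adjusted p = 0.111) or 6 (0.122) or DT-resistant replicate 2 (0.105). BBC3 was 2.04-fold higher in EB-resistant than in VC-resistant cells (log2FC 1.03 ± 0.35, adjusted p = 0.0265), with no overlap. Its call was lost without EB-resistant replicate 2 (log2FC 0.61, adjusted p = 0.0885) or VC-resistant replicate 2 (0.0723), 5 (0.073) or 6 (0.074), and with no filter on low counts (0.051). Between VC- and DT-resistant cells the BBC3 ranges did not overlap either, but the difference was not called (log2FC -0.53, 95% interval -1.30 to 0.24, adjusted p = 0.366). With only the 6 libraries compared it was called (-0.53, adjusted p = 0.0267). Between EB- and DT-resistant cells BBC3 was not called (0.50, 95% interval -0.26 to 1.26, adjusted p = 0.238). BAK1 missed the threshold between EB- and VC-resistant cells (log2FC 0.28 ± 0.12, adjusted p = 0.0525) and passed it without VC-resistant replicate 2 (0.0179), EB-resistant replicate 2 (0.0283), sensitive replicate 2 (0.0372) or 6 (0.0493) or DT-resistant replicate 2 (0.0417), and under 3 other settings (0.0319 to 0.0482). BCL2L11 was not called between any pair of lines (adjusted p = 0.218, 0.856 and 0.462). Without EB-resistant replicate 5 it was lower in EB-resistant than in VC-resistant cells (log2FC -0.49, adjusted p = 0.0242).

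The order of the group means was taken for each gene. BCL2A1 ran sensitive, VC-, DT- and EB-resistant, and BMF ran EB-resistant, DT-resistant, sensitive and VC-resistant, with each neighbouring pair of groups called. MCL1 ran sensitive, VC-, DT- and EB-resistant and BCL2L1 sensitive, VC-, EB- and DT-resistant, and in both the 2 lowest groups were not called against each other. BCL2 and PMAIP1 also ran sensitive, VC-, DT- and EB-resistant; sensitive and VC-resistant were not called apart for BCL2, nor were VC- and DT-resistant for PMAIP1 (adjusted p = 0.159). BAX ran sensitive, EB-, DT- and VC-resistant, and of its neighbours only EB- and DT-resistant were called apart. For BCL2L11, BBC3 and BAK1 no neighbouring groups were called apart. The authors' normalised counts gave the same order for all 10 genes: for BMF, for example, 845 ± 237 in EB-resistant, 327 ± 120 in DT-resistant, 82.9 ± 13.3 in sensitive and 35.4 ± 11.4 in VC-resistant cells.

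Across the 12 libraries, which share 4 groups, log2 CPM of the members correlated to different degrees, given here as descriptions. PMAIP1 and BCL2A1 (Pearson r = 0.988), PMAIP1 and BCL2 (0.974), MCL1 and BCL2L1 (0.970) and BCL2A1 and BCL2 (0.966) were closest, and BMF and BCL2 were most opposed (-0.854). Among 12970 other genes with a mean of at least 1 CPM, those with the most similar pattern were sought for each member. They were SPRY4 (r = 0.989), BCAR3 and TLE3 for BCL2, SERINC2 (0.993), GLYCTK and PXN for BCL2L1, PXN (0.983), VIM and SNHG29 for MCL1, and PRDM4 (0.996), ETV4 and GPR3 for BCL2A1. For the BH3-only genes they were C1R (0.978) and PSD3 for BMF, ETV4 (0.993), CLIP4 and TROAP for PMAIP1, ATF3 (0.927), ECHDC2 and JUNB for BBC3, and ABHD17B (0.846), ENSG00000214719 and NUBPL for BCL2L11. For the effectors they were ARHGAP29 (0.989), PAF1 and HAT1 for BAX, and MAPRE2 (0.907) and GUK1 for BAK1. PXN was thus listed for BCL2L1 and MCL1, and ETV4 for BCL2A1 and PMAIP1.

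The rest of the family was read from a list of 13 further BCL2-related genes, of which 9 could be tested. BCL2L10 and BCL2L14 were not analysed here, and BIK and BCL2L15 had at most 11 counts in any library. In EB-, VC- and DT-resistant cells 3, 3 and 2 of the 9 rose and 3, 4 and 5 fell, against 28.5%, 27.6% and 29.8% of all genes higher and 27.6%, 27.4% and 29.3% lower. HRK, a BH3-only gene, rose from 0.731 ± 0.131 CPM in sensitive to 1.63 ± 0.426 in EB-resistant (log2FC 1.16 ± 0.26, adjusted p = 0.00141), 4.78 ± 0.945 in VC-resistant (2.702 ± 0.25, adjusted p = 5.19e-07) and 3.76 ± 0.772 in DT-resistant cells (2.36 ± 0.25, adjusted p = 1.51e-06). BID, which links death receptors to mitochondria, rose from 28.5 ± 4.63 to 58.1 ± 4.47 CPM in EB-resistant cells (log2FC 1.03 ± 0.10, adjusted p = 6.82e-07). BCL2L13 rose in all 3 lines (log2FC 0.69, 0.49 and 0.52 in EB-, VC- and DT-resistant cells, the order of all triplets below unless another is given). BNIP3, a hypoxia-induced mitophagy receptor, fell in all 3 (-0.92, -0.60 and -0.74), as did BCL2L12 (-0.57, -0.49 and -0.67), and BOK fell in VC- and DT-resistant cells (-0.57 in each). BNIP3L, a relative of BNIP3, fell in EB- and DT-resistant cells (-0.25 and -0.33), and BID rose slightly in VC-resistant cells (0.26, adjusted p = 0.0399).

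Outside the BCL2 family, a list of 22 apoptosome, caspase, inhibitor and mitochondrial genes was tested. Of these, 4, 7 and 10 rose and 8, 6 and 6 fell in EB-, VC- and DT-resistant cells, with medians of -0.11, 0.13 and 0.07 (log2FC). Over all tested genes 28.5%, 27.6% and 29.8% were higher and 27.6%, 27.4% and 29.3% lower in these comparisons. APAF1, the scaffold of the apoptosome, fell in all 3 lines, from 30.8 ± 6.30 CPM in sensitive to 14.6 ± 0.205 in EB-resistant, 15.7 ± 1.45 in DT-resistant and 18.9 ± 1.13 in VC-resistant cells (log2FC -1.07, -0.97 and -0.71 in that order, adjusted p = 4.12e-06, 1.21e-05 and 0.000255). CASP6 fell in VC- and DT-resistant cells (-1.11 and -1.21), and HTRA2 rose there (0.57 and 0.55) but fell in EB-resistant cells (-0.24, adjusted p = 0.0108). CASP10 rose in all 3 lines (1.30, 0.93 and 0.76), CASP8 in EB-resistant cells (0.66, adjusted p = 0.000113) and XIAP, which inhibits caspases, in DT-resistant cells from 46.9 ± 7.58 to 73.2 ± 5.08 CPM (0.64, adjusted p = 7.96e-05). XIAP also rose in VC-resistant cells (0.51, adjusted p = 0.000668). AIFM1, the apoptosis-inducing factor, rose in all 3 lines (0.25, 0.23 and 0.41). DFFA, the inhibitor of the apoptotic nuclease, fell in EB-resistant (-0.30, adjusted p = 0.00895) and rose in VC-resistant (0.66) and DT-resistant cells (0.24), and the channel gene VDAC2 fell in EB-resistant cells (-0.30).

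The death receptor arm had 10 tested genes, of which 1, 2 and 3 rose and 3, 4 and 3 fell in EB-, VC- and DT-resistant cells, and FASLG was not analysed here. At 27.4% to 29.8% of all tested genes called per direction, counts of 2 or 3 of 10 are near the whole table's. FAS fell from 4.42 ± 0.567 CPM in sensitive to 1.56 ± 0.800, 1.27 ± 0.229 and 0.976 ± 0.164 CPM (log2FC -1.503, -1.79 and -2.18, adjusted p = 0.000341, 0.000105 and 1.82e-05). RIPK1, a kinase of receptor complexes, fell in VC-resistant (-1.18 ± 0.12) and DT-resistant cells (-1.05 ± 0.12). The TRAIL receptor gene TNFRSF10A fell in EB-resistant cells (-1.05 ± 0.091, adjusted p = 1.42e-07), where TNFRSF10B fell slightly (-0.30), while TNFRSF10B rose in VC- and DT-resistant cells (0.44 and 0.51). The decoy receptor gene TNFRSF10C rose from 0.086 CPM in sensitive to 0.724 CPM in EB-resistant and 0.357 CPM in DT-resistant cells, with at most 41 counts in a library. In VC- and DT-resistant cells the adaptor gene TRADD rose (0.41 in each) and the TNF receptor gene TNFRSF1A fell (-0.29 and -0.31).

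Of 23 genes for transcription factors, partners and turnover factors of the members, 7, 5 and 10 rose and 10, 7 and 7 fell in the same order, beside 28.5%, 27.6% and 29.8% of all tested genes higher and 27.6%, 27.4% and 29.3% lower. TP73, which encodes a transcription factor, fell in all 3 lines, from 9.07 ± 1.69 CPM to 3.60 ± 0.122, 1.83 ± 1.04 and 0.783 ± 0.128 CPM (-1.34, -2.30 and -3.53). FBXW7, part of a ubiquitin ligase for MCL1, fell in all 3 lines (-0.29, -0.72 and -0.47). DYNLL2, the dynein light chain that binds BMF, fell in all 3 as well (-0.27, -0.42 and -0.72, adjusted p = 0.0102, 0.000451 and 2.84e-06). HUWE1, another ubiquitin ligase for MCL1, rose in VC- and DT-resistant cells (0.38 and 0.61), and STAT3, an activator of MCL1 transcription, rose in EB- and DT-resistant cells (0.44 and 0.51). The RSK kinase genes RPS6KA1 (-0.45, -0.76 and -0.31) and RPS6KA3 (-0.48, -0.26 and -0.19) fell in all 3 lines.

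**Figure D5:**
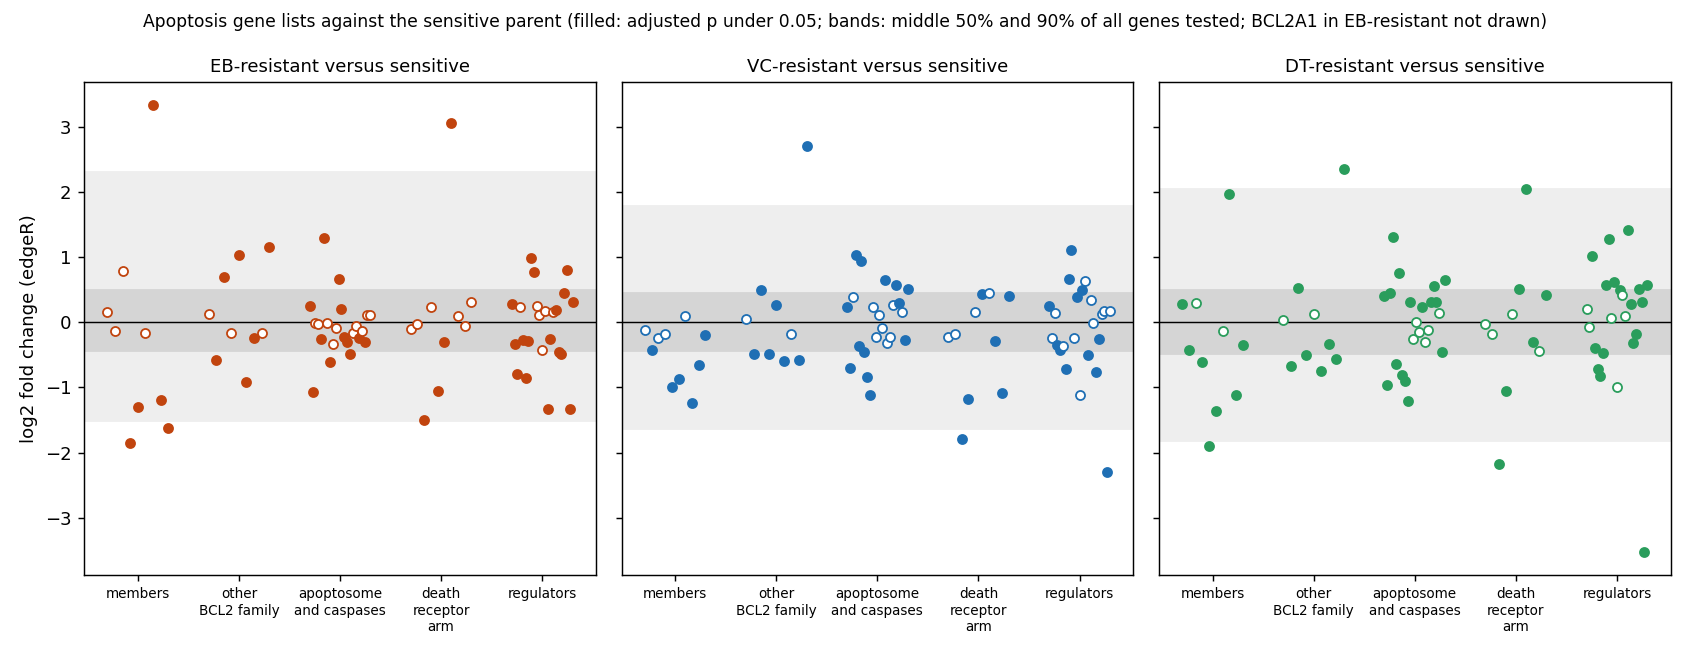
Log2 fold change against sensitive of the tested genes of 5 lists in the EB-, VC- and DT-resistant lines (points; filled, adjusted p under 0.05), with the middle 50% and 90% of all tested genes as dark and light bands; BCL2A1 in EB-resistant cells is not drawn. BMF, HRK in VC- and DT-resistant cells, and TP73 at -3.53 in DT-resistant cells are among the points farthest from 0.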

How the data were processed

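Polyadenylated RNA of 12 samples was sequenced with a strand-specific kit as 100-base paired ends, from RNA with an integrity number of at least 9, per the labels' protocols. Per the submitters' processing notes, the authors used bcl2fastq 2.20.0, STAR 2.7.10b, featureCounts 2.0.1, DESeq2 1.38.3 and hg38. The deposited gene counts are whole numbers, and the authors' normalised values (a signal) match each count over its library's median-of-ratios size factor to within 0.05. For the annotation release, the strand setting and the drug doses, nothing was given in the sources used here. The smallest gene total is 11 counts, and 18 symbols are listed repeatedly.

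Counts were filtered with filterByExpr, scaled by TMM and fitted in edgeR 4.0.16 (R 4.3.3, limma 3.58.1) as 1 robust quasi-likelihood model, in which each group has its mean, over all 12 libraries (8 residual degrees of freedom). The 6 pairs of groups were tested with the F-test, and standard errors and 95% intervals were calculated back from F. CPM were taken on TMM-scaled library sizes, with a prior count of 2 where log2 CPM are used. Where a group held 1 to 3 counts, a ratio of pooled CPM with a counting interval replaces the fold change. Pooled CPM are the summed counts of a group over its summed TMM-scaled library sizes. Such intervals cover counting error only, as no molecular identifiers are described. Alternatives were RLE size factors, DESeq2 1.42.0, no filter, a filter of 1 CPM in 3 libraries, only the 6 libraries compared, a replicate block, limma on log2(normalised count + 1), and leaving out each library. The model was tested on simulated counts with known changes. Deviations from group means correlated at 0.337, 0.151 and 0.195 between same-numbered VC- and DT-resistant libraries, so for these lines the numbers pair the libraries, as a reading of the data and not of the labels. With the block, no call of a member between them changed.

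The named genes are all 10 members, up to 3 genes per direction, list and comparison with sensitive by adjusted p, and for each member the 3 genes most correlated with it. Some genes within this rule are not reported here. A few genes (RELA, NFKB1, MITF in DT-resistant cells, some regulators in further lines, and the markers TYRP1, PDGFRB, COL1A1 and LUM) were named after their values were seen. The members, lists and tests were chosen with earlier results of these data known. Python 3.11.15 with matplotlib 3.10.9 drew the figures.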

Additional observations from a re-analysis of the deposited data

Results flagged for a closer look

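Each of the following values is a difference between resistant lines in edgeR's quasi-likelihood test, meaning that the changes of the 2 lines against the shared sensitive libraries were unequal. All are log2 fold changes of the first line over the second with an adjusted p under 0.05. Between EB- and VC-resistant cells they were -1.68 for BCL2, -0.43 for BCL2L1, -0.53 for MCL1, -1.43 for PMAIP1, 4.57 for BMF, 1.03 for BBC3 and 0.29 for BAX. Between EB- and DT-resistant cells they were -1.24 for BCL2, -1.28 for PMAIP1, 1.36 for BMF and 0.29 for BAX. Between VC- and DT-resistant cells they were 0.43 for BCL2, 0.49 for BCL2L1, 0.45 for MCL1, 0.9 for BCL2A1, -3.21 for BMF and -0.4 for BAK1. BCL2A1 in EB-resistant cells rests on 2 counts, and its fitted values of -9.12 against VC-resistant and -8.22 against DT-resistant cells depend on the prior count and are no bounds. BMF was the only one of the 10 genes called in opposite directions against sensitive, higher in EB- and DT-resistant and lower in VC-resistant cells. Each line is 1 culture lineage in 1 drug pair, so line and drug pair cannot be told apart.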

How the results depend on the processing

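Of the 420 log2 fold changes of members under the 7 other settings, 407 kept their direction and side of the threshold, 6 lost and 5 gained a call, and 2 changed sign. Of the 720 with a library left out, 670 did so, 27 lost and 8 gained a call, and 15 changed sign. With the replicate block, 2 members rose in EB-resistant cells instead of 1, as BBC3 was called (log2FC 0.79, adjusted p = 0.00389); it changed no other call of a member. Outside the VC- and DT-resistant pair, same-numbered libraries did not all correlate above 0.1 (0.00144 to 0.11), so the numbers were not taken as pairs there. Such weak correlations do not exclude pairing. In DESeq2's Wald test, and with only the 6 libraries compared, 1 member rose in DT-resistant cells instead of 2. BAX between VC- and DT-resistant cells turned from -0.00039 to 0.007743 with the stricter filter and 0.003083 with the 6 libraries compared, and with a library left out it ran from -0.04243 to 0.02464. Leaving out a library also turned the sign of uncalled changes: BCL2L11 ran from -0.3926 to 0.03073 in EB-resistant against sensitive and from -0.2703 to 0.1537 against DT-resistant cells, BCL2L1 from -0.02071 to 0.1062 in EB- against DT-resistant cells, and BBC3 from -0.441 to 0.1872 in VC-resistant against sensitive cells. Members that rose then numbered 1 to 2 in EB-resistant and 1 to 2 in DT-resistant cells, and 2 to 4 were higher and 1 to 2 lower in VC- than in DT-resistant cells. Over all genes, 756 to 1306 were higher and 966 to 1596 lower in VC- than in DT-resistant cells. The cause of these changes was not tested. Depth limits BCL2A1 in EB-resistant cells, with 2 counts in all. BBC3 is limited by the spread between libraries, which had the same replicate order (2, 6 and 5 from high to low) in all 4 groups.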
